A study of Mus musculus with 12 samples.

Results

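Chemokines are small secreted proteins that draw leukocytes along a gradient, and 10 of their genes were followed here in mouse leukemic cells: the CC chemokines *Ccl2*, *Ccl3*, *Ccl4*, *Ccl5*, *Ccl6*, *Ccl7* and *Ccl9*, and the CXC chemokines *Cxcl2*, *Cxcl10* and *Cxcl16*. They were found by gene symbol, and each of the 10 had a value among the 25263 symbols of the deposited table. *Ccl3* had 2 entries, of which the one with the higher mean was used. All groups were leukemic cells of adult bone marrow with MLL-AF9 (MA9), an oncogene in which part of the histone methyltransferase MLL is joined to AF9. WT cells (strain label C57BL/6) had an intact Hoxa cluster, a row of homeobox genes; floxed cells (strain label C57BL/6J) had the cluster flanked by loxP sites, the target of Cre recombinase. The 4 groups of 3 libraries were WT-GFP (WT cells, control GFP retrovirus), WT-Cre (WT cells, Cre retrovirus), Hoxa-flox (floxed cells, control retrovirus) and Hoxa-del (floxed cells after Cre). All cells were kept overnight with the cytokines SCF, GM-CSF, IL-6 and IL-3, and GFP-high cells were sorted. The labels do not say whether the floxed cells were 1 clone or pooled.

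CC and CXC chemokines are named for the spacing of the first cysteines of the mature protein, which are adjacent in the first family and split by 1 residue in the second. They act on G protein-coupled receptors of the Ccr and Cxcr families, which signal through Gi proteins to move the cell. In bone marrow, monocytes, macrophages and neutrophils are main sources of these ligands and also carry many of their receptors, and several of the genes are induced through NF-kB or interferon signalling.

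The coding sequence shows the family of 9 of the members. The cysteine codons are in capitals, with 12 bases on either side, read 5′ to 3′ on the coding strand (GENCODE M21 transcripts, GRCm38). The CC members come first and the CXC members last.
Ccl2: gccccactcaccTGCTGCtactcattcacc
Ccl7: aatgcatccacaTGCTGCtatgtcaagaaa
Ccl6: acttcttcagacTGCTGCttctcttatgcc
Ccl9: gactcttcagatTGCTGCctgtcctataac
Ccl4: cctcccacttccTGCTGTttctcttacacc
Ccl5: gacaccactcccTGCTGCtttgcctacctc
Cxcl2: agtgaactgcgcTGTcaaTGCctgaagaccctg
Cxcl10: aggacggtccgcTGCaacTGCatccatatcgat
Cxcl16: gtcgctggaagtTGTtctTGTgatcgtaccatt

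In 5 of the 6 CC members shown both codons were TGC, and *Ccl4* had TGC followed by TGT. *Cxcl16* encodes 246 residues against 91 to 148 in the other 9, the added length holding the stalk and membrane anchor of a chemokine that is made as a transmembrane protein. The 7 CC genes lie on chromosome 11 (GENCODE M21, GRCm38). *Ccl2* (11:82035571-82037453) and *Ccl7* (11:82045712-82047525) are 8.26 kb apart. A second group starts 1478 kb further on with *Ccl5* (11:83525778-83530518), *Ccl9* (11:83572919-83578636), *Ccl6* (11:83587882-83593087), *Ccl3* (11:83647844-83649355) and *Ccl4* (11:83662584-83664683). *Cxcl16* is on the same chromosome (11:70453983-70459984), while *Cxcl2* (5:90903871-90905938) and *Cxcl10* (5:92346638-92348889) are on chromosome 5. Over the aligned coding sequence, 72.4% of bases were identical between *Ccl2* and *Ccl7*, 71.4% between *Ccl3* and *Ccl4* and 70.6% between *Ccl6* and *Ccl9*. The longest identical run of these 3 pairs was 23 bases, between *Ccl6* and *Ccl9*. *Ccl2*, *Ccl6*, *Cxcl10* and *Cxcl16* overlap a gene on the other strand. The library kit kept strand per the labels, but whether counting used it is not stated.

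Levels are in FPKM (fragments scaled to transcript length and library size), so genes can be compared per length. Depth is not given and was estimated from the steps of low values at 3.91 M (WT-Cre 2) to 18.4 M (WT-GFP 3) fragments per library. *Hoxa9*, a gene of the deleted cluster, was at 217 to 257 FPKM in Hoxa-flox and 83.5 to 119 FPKM in Hoxa-del, so its transcripts were still present after Cre, and at 152 to 183 FPKM in the WT libraries. The 6 floxed libraries fell into 2 sets by their correlation across genes. Set 1 held Hoxa-flox 1, Hoxa-flox 2 and Hoxa-del 2 (r = 0.976 to 0.987), set 2 held Hoxa-flox 3, Hoxa-del 1 and Hoxa-del 3 (r = 0.951 to 0.977), and r between sets was 0.911 to 0.927. The proliferation gene *Mki67* was at 14.9 to 17.8 FPKM in set 1 and 84.6 to 93.2 FPKM in set 2. Both sets mix groups, so levels in the floxed cells are also given by set for the members and for some of the other genes.

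The WT cells made much more chemokine RNA than the floxed cells. Summed over the 10 genes, the level was 514 to 526 FPKM in WT-GFP, 581 to 601 FPKM in WT-Cre, 48.6 to 125 FPKM in Hoxa-flox and 52.3 to 160 FPKM in Hoxa-del. The same 3 genes led in all 6 WT libraries, in the order *Ccl6*, *Ccl9* and *Ccl2*, and *Ccl6* and *Ccl9* held 78.2% to 79.2% of the sum. In the floxed libraries that share was 45.5% to 80.8% and *Ccl2* was never among the first 3. In bulk RNA, fewer cells that express a gene and less RNA per cell cannot be told apart.

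Differences were tested with limma on log2(FPKM + 1) over the 13169 symbols that averaged 1 FPKM or more, with Benjamini-Hochberg adjusted p under 0.05 as the threshold. In Hoxa-flox against WT-GFP, 7 of the 10 chemokines passed as lower and 0 as higher, where 13.5% of all symbols tested fell and 13.3% rose. In Hoxa-del against WT-Cre, which shares no library with the former, 7 of 10 passed as lower and 0 as higher, beside 14.2% and 13% of all symbols. *Ccl2*, *Ccl7* and *Cxcl16* averaged under 1 FPKM in the floxed cells and met the minimum only through the WT cells, so they had to differ and these counts lend no support through them. Of the 6 members at 1 FPKM or more on average in both genotypes, 4 fell in each comparison: *Ccl3*, *Ccl6* and *Ccl9* in both, *Cxcl2* in the first and *Ccl4* in the second. The remaining member, *Ccl5*, met the minimum only through the floxed cells and did not pass. In a fit of all 25263 symbols, with no minimum, the same 7 members passed as lower in each comparison, beside 7.9% and 9.08% of symbols. The symbols added there all averaged under 1 FPKM, and the 7 again include *Ccl2*, *Ccl7* and *Cxcl16*. This count therefore adds no support. The median change of the 10 was -1.68 and -1.27 on the log2 scale, beside medians over all symbols of 0.00 in both. This median includes *Ccl2*, *Ccl7* and *Cxcl16*, so it too lends no support through them. Of the 6 members above the minimum in both genotypes, the groups did not overlap for 5 in the first comparison and 4 in the second, all lower in the floxed cells, beside 23.3% and 20.7% of all symbols. Genotype and strain label differ together in these comparisons and cannot be told apart, nor can a difference between the leukemias of origin.

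**Figure D1:**
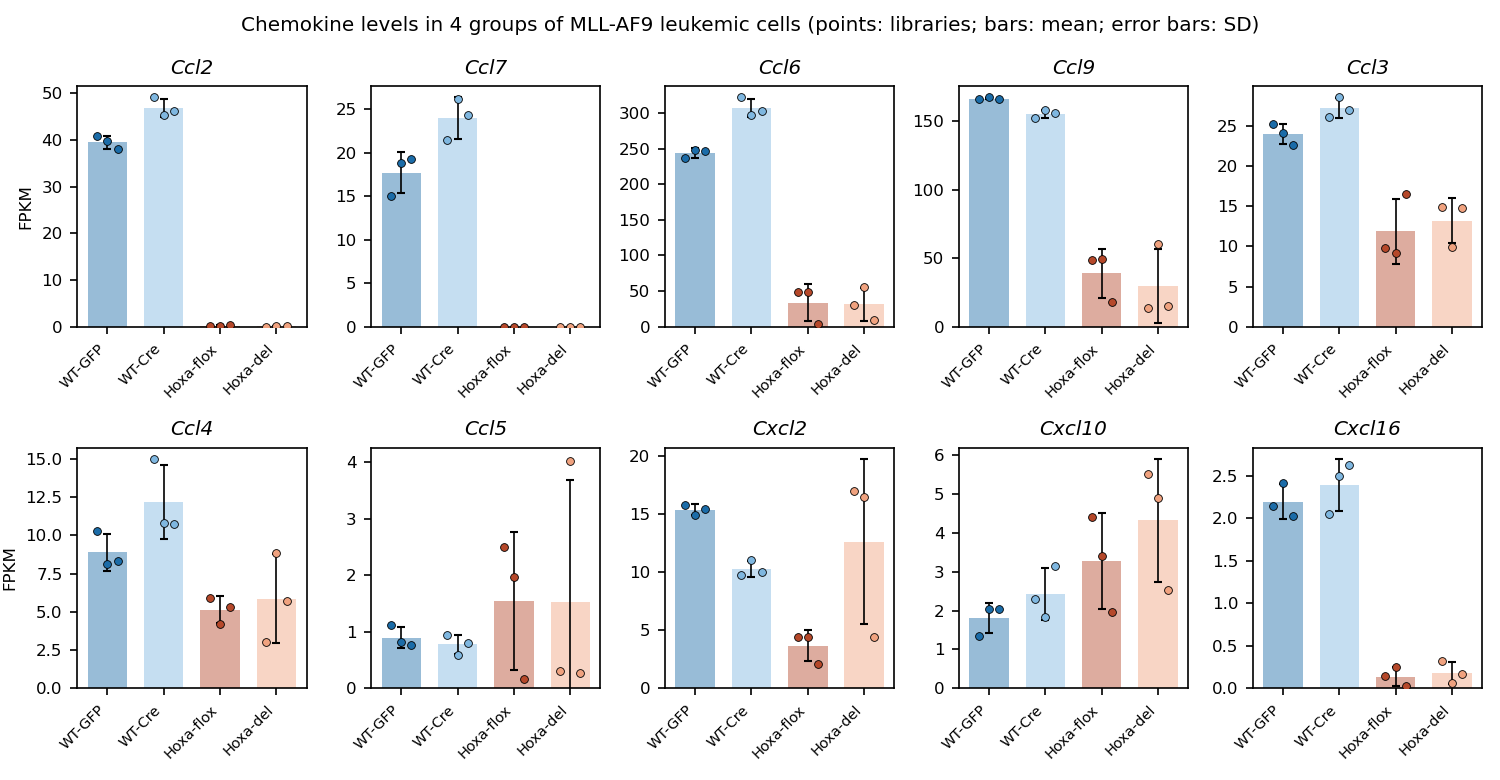
Level of each of the 10 chemokines in FPKM (vertical axis, from 0, scaled per gene) in the 4 groups. Points are libraries, bars the mean and error bars the SD of n = 3, with SD bars that would pass below 0 ending at the axis; *Ccl2* and *Ccl7* are at or near 0 in all 6 floxed libraries, and *Ccl5* and *Cxcl2* spread widely within Hoxa-del.

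*Ccl2* and *Ccl7*, which attract monocytes through the receptor Ccr2, were nearly silent in the floxed cells. *Ccl2* was at 40.8, 39.9 and 38.1 FPKM in WT-GFP and 49.1, 45.5 and 46.2 FPKM in WT-Cre. It was at 0.208, 0.108 and 0.388 FPKM in Hoxa-flox and 0, 0.225 and 0.0943 FPKM in Hoxa-del. Every floxed library was thus far below every WT library: the Hoxa-flox mean of 0.235 ± 0.142 FPKM (SD, n = 3) was 0.594% of the WT-GFP mean of 39.6 ± 1.38 FPKM, and the Hoxa-del mean was 0.227% of the WT-Cre mean (0.1004% without Hoxa-del 2). These low levels stand for about 0 to 5 fragments per library, against 145 to 570 per WT library, so the size of the ratio is imprecise. In the fit with no minimum the change of *Ccl2* was -5.04 (SE 0.13, adjusted p = 9.79e-09, limma) in Hoxa-flox against WT-GFP and -5.44 (adjusted p = 7.30e-09) in Hoxa-del against WT-Cre.

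*Ccl7* was at 15, 18.9 and 19.3 FPKM in WT-GFP and 21.5, 26.2 and 24.3 FPKM in WT-Cre, about 82 to 284 fragments. It was listed at 0 in all 6 floxed libraries, so no fold is given. The change fitted with no minimum, -4.22 (SE 0.14, adjusted p = 8.79e-08) in Hoxa-flox and -4.64 (adjusted p = 5.08e-08) in Hoxa-del, depends on the added 1 FPKM and is no bound. Across the 12 libraries, *Ccl2* and *Ccl7* had the highest correlation of any 2 members (r = 0.997 of log2 values, over libraries that differ mainly by genotype).

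*Ccl6* and *Ccl9*, rodent chemokines made by myeloid cells that act through Ccr1, were the most abundant members. *Ccl6* was at 236, 248 and 247 FPKM in WT-GFP and 322, 297 and 303 FPKM in WT-Cre, above 98.0% and 98.6% of the symbols tested. It was at 48.9, 49.3 and 3.72 FPKM in Hoxa-flox and 30.6, 55.3 and 9.41 FPKM in Hoxa-del. The floxed libraries were thus all lower than the WT libraries but spread widely among themselves: Hoxa-flox averaged 34.0 ± 26.2 FPKM against 244 ± 6.48 in WT-GFP (SD, n = 3), which is 7.17-fold lower, and Hoxa-del 31.8 ± 23.0 FPKM against 307 ± 12.9 in WT-Cre, 9.67-fold lower. Without Hoxa-del 2, the highest Hoxa-del library, the latter was 15.4-fold. *Ccl6* fell in both comparisons on the log2 scale (-3.42, SE 0.81, adjusted p = 0.00941, and -3.54, adjusted p = 0.00808).

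*Ccl9* was at 166, 167 and 166 FPKM in WT-GFP and 152, 158 and 156 FPKM in WT-Cre. In Hoxa-flox it was at 48.8, 49.6 and 18.4 FPKM, and in Hoxa-del at 13.4, 60.7 and 14.9 FPKM. No floxed library came within reach of the WT range, and 1 library of Hoxa-flox and 2 of Hoxa-del lay far below the other 3. The mean was 4.28-fold lower in Hoxa-flox than in WT-GFP and 5.23-fold lower in Hoxa-del than in WT-Cre (10.97-fold without Hoxa-del 2), and *Ccl9* fell in both (-2.2, SE 0.50, adjusted p = 0.00752, and -2.69, adjusted p = 0.00236). With both at these levels, *Ccl6* stood above *Ccl9* in every WT library, whereas in the floxed libraries each led in some: *Ccl9* was the higher in 4 of 6.

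*Ccl3* and *Ccl4*, neighbouring genes whose proteins attract monocytes and lymphocytes, were lower by a smaller step. *Ccl3* was at 25.2, 24.1 and 22.6 FPKM in WT-GFP, 26.1, 28.5 and 26.9 FPKM in WT-Cre, 9.80, 9.22 and 16.5 FPKM in Hoxa-flox and 14.9, 9.93 and 14.8 FPKM in Hoxa-del. All floxed values were below all WT values, with means of 49.4% and 48.5% of those in the matched WT group, and *Ccl3* fell in both comparisons (-1.0, SE 0.21, adjusted p = 0.00453, and -1.01, adjusted p = 0.00451). Its second entry, at 3.03 to 4.88 FPKM in WT and 0.675 to 1.71 FPKM in floxed cells, was lower in floxed cells too. *Ccl4* was at 10.3, 8.13 and 8.30 FPKM in WT-GFP, 15, 10.8 and 10.8 FPKM in WT-Cre, 5.93, 4.19 and 5.30 FPKM in Hoxa-flox and 3.01, 8.88 and 5.73 FPKM in Hoxa-del. Each floxed group lay below its own WT control without overlap. *Ccl4* fell by 1.02 (adjusted p = 0.02, limma) in Hoxa-del against WT-Cre. Its difference of -0.69 (SE 0.28, 95% interval -1.31 to -0.07, adjusted p = 0.0936) in Hoxa-flox against WT-GFP did not pass. It passed in a limma fit of the compared groups alone (adjusted p = 0.0257). With set 1 alone it was -0.72, given without a test because the sets come from these same data. The call in Hoxa-del was lost without WT-Cre 1, the highest WT-Cre library (adjusted p = 0.0816, limma). A fit of the compared groups alone lost it too (change again -1.02, adjusted p = 0.0774, limma). So did a fit with the only set 1 library, Hoxa-del 2 (change -0.40), which rests on 1 library and decides nothing.

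*Ccl5*, which attracts T cells and monocytes through receptors that include Ccr1 and Ccr3, was a minor chemokine of these cells. It was at 0.757 to 1.12 FPKM in WT-GFP and 0.594 to 0.935 FPKM in WT-Cre. In the floxed cells it was at 2.49, 1.96 and 0.159 FPKM in Hoxa-flox and 0.306, 4.03 and 0.267 FPKM in Hoxa-del. Of these 6 values 3 lay above all WT libraries and the other 3 below all of them, so both floxed groups overlapped their controls. In the fit with no minimum the change of *Ccl5* was 0.28 (SE 0.54, adjusted p = 0.824, limma) and 0.19 (adjusted p = 0.887) and did not pass. The values stand for about 1 to 17 fragments per library.

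*Cxcl16*, the ligand of Cxcr6 that is anchored in the membrane and released by the protease Adam10, was at 2.14, 2.42 and 2.03 FPKM in WT-GFP and 2.05, 2.5 and 2.63 FPKM in WT-Cre. It was at 0.139, 0.247 and 0.0245 FPKM in Hoxa-flox and 0.317, 0.0572 and 0.169 FPKM in Hoxa-del, about 1 to 9 fragments. All 6 floxed values were below the lowest WT value, and the means were 6.23% and 7.56% of those in the matched WT group, or 3.72% without Hoxa-flox 2 and 4.72% without Hoxa-del 1. In the fit with no minimum the change of *Cxcl16* was -1.49 (SE 0.14, adjusted p = 5.61e-05) and -1.52 (adjusted p = 4.94e-05), on a scale that understates a difference at so low a level.

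**Figure D2:**
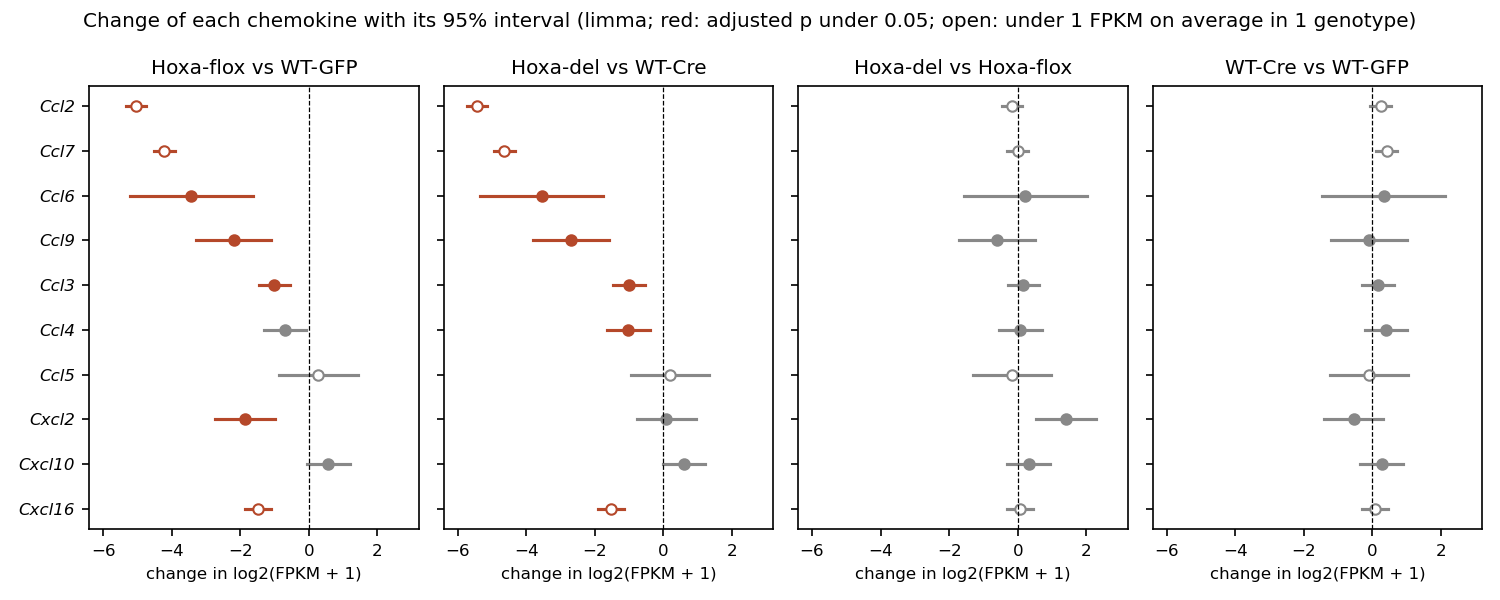
Change in log2(FPKM + 1) of each of the 10 chemokines (horizontal axis) in 4 comparisons, with the 95% interval from limma; red marks an adjusted p under 0.05 and open points the members that averaged under 1 FPKM in 1 genotype. The 7 red points in each of the 2 panels of floxed against WT cells all lie below 0, 3 of them open, and the 2 panels of Cre against control virus hold none.

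*Cxcl10* was not lower in the floxed cells, and *Cxcl2* was lower only in Hoxa-flox. Their promoters are shown because both hold a stretch that fits the NF-kB motif, with that stretch in capitals, as is 1 stretch of the interferon-response letters GAAANNGAAA in *Cxcl10* (RefSeq, GRCm38.p6, gene strand). Distances are from the RefSeq start, which for *Cxcl2* lies 28 bases downstream of the GENCODE gene start given above. The first stretch runs from 130 to 30 bases before the *Cxcl2* start (chr5:90903769-90903869, plus strand) and the second from 235 to 90 bases before the *Cxcl10* start (chr5:92348979-92349124, minus strand).
Cxcl2: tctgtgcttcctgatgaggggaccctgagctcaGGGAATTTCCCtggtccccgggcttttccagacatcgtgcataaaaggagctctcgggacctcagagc
Cxcl10: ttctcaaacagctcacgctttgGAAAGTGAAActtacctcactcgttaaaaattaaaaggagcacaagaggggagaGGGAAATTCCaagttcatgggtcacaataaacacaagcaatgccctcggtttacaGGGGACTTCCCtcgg

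In the 250 bases before the start, read on both strands, *Cxcl2* had 1 NF-kB stretch and *Cxcl10* had 2, *Ccl9* had 1, and *Ccl3* and *Ccl6* had none. Promoters of 5 of the 10 members were matched. Of 32851 promoter windows of that length, 7.25% held an NF-kB match, 2.98% held GAAANNGAAA, which among these 5 only *Cxcl10* had, and 6.75% held the AP-1 letters TGANTCA, which *Ccl9* and *Cxcl10* had. A match describes letters and is not evidence of binding.

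*Cxcl2*, which recruits neutrophils through Cxcr2, had the largest ratio of means between the floxed groups. It was at 15.8, 14.9 and 15.4 FPKM in WT-GFP and 9.70, 11 and 9.99 FPKM in WT-Cre. In Hoxa-flox it was at 4.43, 4.40 and 2.13 FPKM, and in Hoxa-del at 16.9, 16.5 and 4.40 FPKM. Hoxa-flox was below all WT libraries, whereas 2 of the 3 Hoxa-del libraries were above all of them and Hoxa-del 3 was level with Hoxa-flox. *Cxcl2* fell by 1.86 (SE 0.39, adjusted p = 0.00487) in Hoxa-flox against WT-GFP, and the change of 0.09 (adjusted p = 0.899) in Hoxa-del against WT-Cre did not pass.

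In Hoxa-del against Hoxa-flox, 0 of 10 chemokines passed, beside 0.0304% of all symbols (4 of 13169). At an unadjusted p under 0.05 there was 1 member, beside 6.27% of all symbols: *Cxcl2*, with a mean 3.45-fold higher in Hoxa-del (12.6 ± 7.10 against 3.65 ± 1.32 FPKM, SD, n = 3) and a change of 1.40 (SE 0.39, 95% interval 0.54 to 2.27, adjusted p = 0.729, limma). The groups overlapped by 1 library. For the interaction, the change with Cre in floxed cells less that in WT cells, 0 of 10 passed beside 0.00759% of all symbols, and 1 had an unadjusted p under 0.05 beside 2.46%: again *Cxcl2*, at 1.95 (SE 0.56, 95% interval 0.72 to 3.17, adjusted p = 0.9997). Without Hoxa-del 3, the Hoxa-del library that overlaps Hoxa-flox, both passed, at 1.97 (adjusted p = 0.0154, limma) and 2.52 (adjusted p = 0.0483). No other library left out gave a call of either. *Ccl9* differed by -0.60 (adjusted p = 0.751) and *Cxcl10* by 0.31 (adjusted p = 0.761) between Hoxa-del and Hoxa-flox.

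*Cxcl10*, the interferon-induced ligand of Cxcr3, was at 1.36, 2.04 and 2.03 FPKM in WT-GFP and 2.30, 1.84 and 3.16 FPKM in WT-Cre. It was at 4.42, 3.42 and 1.97 FPKM in Hoxa-flox and 5.53, 4.91 and 2.53 FPKM in Hoxa-del. In each floxed group 2 libraries were above all WT libraries and the third was within their range. The change of 0.57 (SE 0.28, 95% interval -0.05 to 1.19, adjusted p = 0.166) and 0.60 (adjusted p = 0.143) did not pass, and passed without Hoxa-flox 3 (0.81, adjusted p = 0.0486) or Hoxa-del 3 (0.87, adjusted p = 0.0428). Its gene lies within *Art3* on the other strand, which averaged 2.49 FPKM.

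In WT-Cre against WT-GFP, 0 of 10 chemokines passed, beside 0.0152% of all symbols (2 of 13169), and 1 had an unadjusted p under 0.05, beside 2.37%: *Ccl7*, with a change of 0.42 (SE 0.14, adjusted p = 1, limma). The groups nevertheless did not overlap for 7 of 10 members, beside 25.7% of all symbols. *Ccl2*, *Ccl3*, *Ccl4*, *Ccl6* and *Ccl7* were higher in all 3 WT-Cre libraries, with means 1.13-fold (*Ccl3*) to 1.37-fold (*Ccl4*) those of WT-GFP, and *Ccl9* and *Cxcl2* were lower, at 93.3% and 66.6%. The fit pools the spread over groups, and the median SD of log2 values was 0.357 in Hoxa-del and 0.290 in Hoxa-flox but only 0.116 in WT-GFP and 0.124 in WT-Cre. A fit of the 2 WT groups alone, which leaves out the spread of the floxed libraries, also called 0 of 10.

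The 2 sets of floxed libraries did not overlap for 4 of the 10 members, no larger a share than among all symbols. *Ccl5* (1.96 to 4.03 FPKM in set 1, 0.159 to 0.306 in set 2), *Ccl6* (48.9 to 55.3 against 3.72 to 30.6) and *Ccl9* (48.8 to 60.7 against 13.4 to 18.4) were higher in set 1, beside 31.7% of all symbols. *Ccl3* was lower in set 1 (9.22 to 9.93 against 14.8 to 16.5 FPKM), beside 23.1%, while its second entry overlapped between the sets (1.30 to 1.71 against 0.675 to 1.42 FPKM). The sets come from the same data, so these are descriptions without a test. Each floxed group holds libraries of both sets. For *Ccl5*, the 3 libraries of set 1 are those above all WT libraries and the 3 of set 2 those below.

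**Figure D3:**
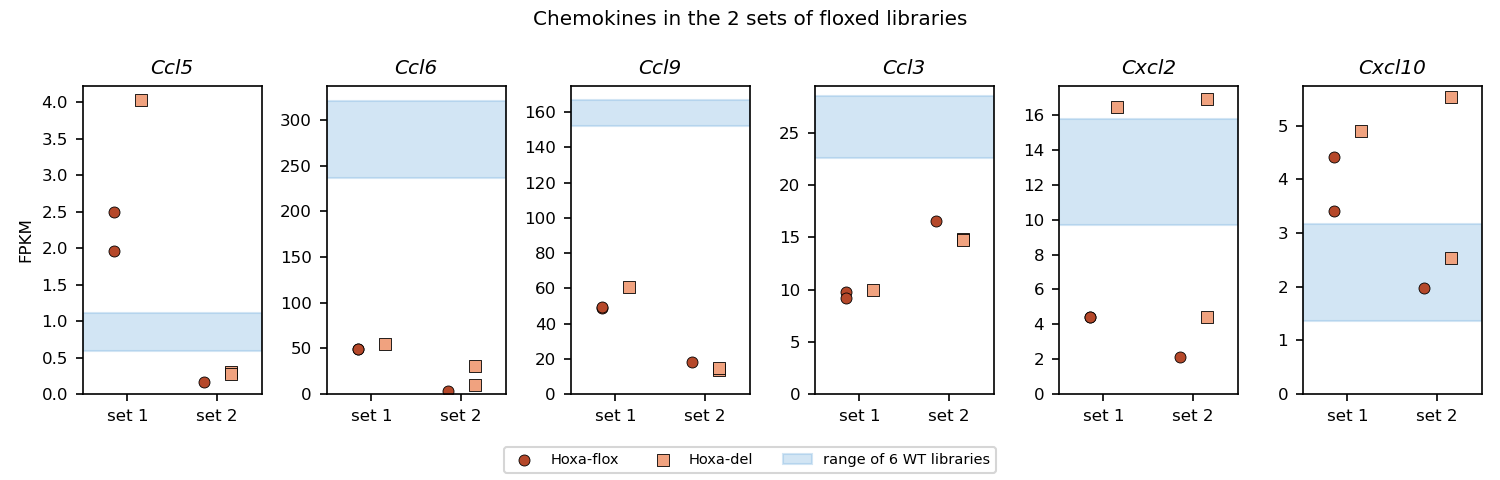
Levels in FPKM (vertical axis, from 0, scaled per gene) of 6 chemokines in the 2 sets of floxed libraries (circles Hoxa-flox, squares Hoxa-del), with the range of the 6 WT libraries shaded. *Ccl5*, *Ccl6* and *Ccl9* are higher and *Ccl3* lower in set 1, while the 2 high *Cxcl2* values are the squares of Hoxa-del 1 and Hoxa-del 2, 1 in each set.

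Neighbours on chromosome 11 did not all change alike. *Ccl2* and *Ccl7* were nearly silent together, but in the second group *Ccl5*, whose change did not pass, lies 42.4 kb from *Ccl9*, which was 4.28-fold lower in Hoxa-flox, and *Ccl6*, 7.17-fold lower, lies 54.8 kb from *Ccl3*, at 49.4% of WT-GFP.

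**Figure D4:**
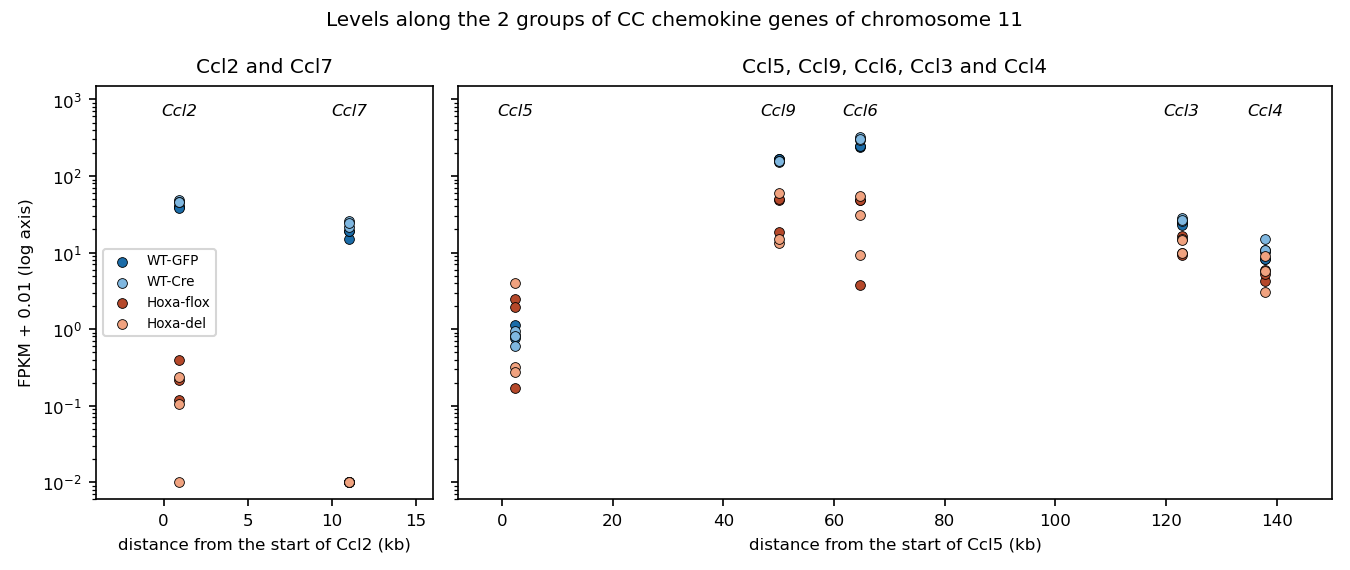
Levels (FPKM + 0.01, log axis) of 7 CC chemokines plotted at their position on chromosome 11, in kb from the start of *Ccl2* (left) and of *Ccl5* (right); each point is 1 of 12 libraries, coloured by group, and points at the lowest level are libraries listed at 0. The gap between WT (blue) and floxed (red) libraries is widest for *Ccl2* and *Ccl7*, and the 2 colours are mixed at *Ccl5*.

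Of 31 other chemokine genes looked for, 19 had a value and 8 were tested. Of the 3 at 1 FPKM or more on average in both genotypes, 1 fell in each comparison and 0 rose, beside 13.5% and 14.2% of all symbols lower. The platelet chemokine *Pf4* went from 93.5 ± 7.75 FPKM in WT-GFP to 1.69 ± 1.03 in Hoxa-flox (change -5.20, adjusted p = 6.80e-08, limma, and -5.24 in Hoxa-del). The other 5 met the minimum through 1 genotype only and are given as levels, without a test of the genotypes. *Ppbp*, another platelet chemokine, averaged 10.0 ± 0.481 FPKM in WT-GFP against 0.0962 ± 0.0450 in Hoxa-flox, and *Cxcl14* 10.3 ± 1.01 against 0.120 ± 0.0838 FPKM. *Ccl17* averaged 7.25 ± 0.233 against 0.760 ± 0.214 FPKM. The interferon-induced *Cxcl9* was the one that was high in floxed cells, at 5.63 ± 3.71 FPKM in Hoxa-flox and 0.484 ± 0.258 in WT-GFP. *Cxcl3*, a close relative of *Cxcl2* that also acts on Cxcr2, averaged 17.0 ± 0.529 FPKM in WT-GFP and 8.37 ± 0.484 FPKM in WT-Cre. The Hoxa-flox level was 0.138 ± 0.0914 FPKM and the Hoxa-del level 0.600 ± 0.462 FPKM. Its Hoxa-del mean was thus 4.35-fold that of Hoxa-flox, with overlap, against 3.45-fold for *Cxcl2*, though far below WT levels. The change of *Cxcl3* was 0.45 (unadjusted p = 0.0420, adjusted p = 0.729, limma) in Hoxa-del against Hoxa-flox and did not pass. Both floxed means of *Cxcl3* were under 1 FPKM, so its fold rests on low values and lends no support to that of *Cxcl2*. The interaction, which compares the genotypes, is not given for it.

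Receptors did not move together. Of 23 receptor genes 8 were tested: in Hoxa-flox *Ccr2*, the receptor of *Ccl2* and *Ccl7*, rose by 0.97 (adjusted p = 0.00773; 21.3 ± 2.54 to 43.5 ± 11.6 FPKM), and *Ccrl2* fell (-1.12, adjusted p = 0.0350), of 7 at 1 FPKM or more on average in both genotypes. In Hoxa-del the changes of *Ccr2* (0.46, adjusted p = 0.15) and *Ccrl2* (-0.60, adjusted p = 0.233) did not pass. Of all symbols tested, 13.5% fell and 13.3% rose in Hoxa-flox, and 14.2% fell and 13% rose in Hoxa-del. The eighth, the scavenging receptor *Ackr4*, met the minimum only through the WT cells, at 1.49 ± 0.364 FPKM in WT-GFP against 0.339 ± 0.0801 in Hoxa-flox. Named after their values were seen as receptors of the members, *Ccr1* was at 19.96 ± 0.371 FPKM in WT-GFP against 35.5 ± 13.8 in Hoxa-flox, *Cxcr2* at 6.72 ± 0.503 and 4.86 ± 2.32, and *Cxcr3* and *Ccr3* were below 0.2 FPKM on average in every group. *Cxcr4*, the receptor that retains cells in bone marrow, was the highest receptor, at 147 ± 10.0 FPKM in WT-GFP and 134 ± 3.49 FPKM in WT-Cre against 111 ± 47.9 FPKM in Hoxa-flox and 98.9 ± 64.8 FPKM in Hoxa-del. These floxed means hide the sets: *Cxcr4* was at 135 to 171 FPKM in set 1 and 46.5 to 78.8 FPKM in set 2. *Ccr1* was at 41.7 to 49.2 FPKM in set 1 against 13.6 to 19.7 in set 2, and *Ccr2* at 46.1 to 53.6 against 29.3 to 33.2 FPKM.

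Of 24 tested genes of receptor signalling, 8 fell and 2 rose in Hoxa-flox and 8 fell and 0 rose in Hoxa-del. Beside these counts and those of the proteases, 13.5% of all symbols tested fell and 13.3% rose in Hoxa-flox. In Hoxa-del 14.2% fell and 13% rose. *Pik3r5*, the adaptor of the PI3K that G proteins activate, changed by -2.05 and -1.93, the arrestin *Arrb2*, which ends receptor signalling, by -1.34 and -1.14, the exchange factor *Vav1* by -0.60 and -0.54, and *Pik3cg*, the catalytic subunit, by -0.55 and -0.47, the latter a call lost in a fit of the compared groups alone (adjusted p = 0.0601). Of 9 proteases that shed or cut chemokines and were at 1 FPKM or more on average in both genotypes, 2 fell and 1 rose in Hoxa-flox and 1 fell and 1 rose in Hoxa-del. The collagenase *Mmp8* changed by -3.48 and -3.62, *Elane* (-0.97) and *Mmp12* (0.87) passed in Hoxa-flox and *Dpp4* (1.21, adjusted p = 0.00550), which trims several chemokines, in Hoxa-del. The membrane protease *Mmp14* met the minimum only through the WT cells, at 7.33 ± 1.13 FPKM in WT-GFP against 0.0512 ± 0.0421 in Hoxa-flox. The calls of *Elane*, *Ccrl2* and *Mmp12* in Hoxa-flox against WT-GFP lay near the threshold and none held in the fit with no minimum (adjusted p = 0.092, 0.0684 and 0.0599). With 1 library left out, *Elane* was lost in each of the 6 fits (changes -1.05 to -0.81, adjusted p = 0.0508 to 0.0953), *Ccrl2* without any 1 WT-GFP library or Hoxa-flox 1 or 3 (-1.17 to -0.84, 0.068 to 0.107) and *Mmp12* without any 1 WT-GFP library or Hoxa-flox 1 or 2 (0.80 to 0.92, 0.0658 to 0.103). *Adam10*, named for its role in shedding Cxcl16, was at 81.3 ± 7.21 FPKM in WT-GFP against 74.9 ± 27.2 in Hoxa-flox.

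Of 20 inducers and NF-kB feedback genes at 1 FPKM or more on average in both genotypes, 6 fell and 2 rose in Hoxa-flox and 5 fell and 3 rose in Hoxa-del. Beside these counts and those of the interferon factors, 13.5% of all symbols tested fell and 13.3% rose in Hoxa-flox. In Hoxa-del 14.2% fell and 13% rose. The NF-kB subunit *Rel* changed by -2.18 and -1.77 and the sensor *Tlr2* by -1.03 and -1.19, while the endotoxin receptor *Tlr4* changed by 1.02 and 1.01. Of the 2 that met the minimum only through the WT cells, the cytokine *Il1a* was at 2.73 ± 0.241 FPKM in WT-GFP against 0.141 ± 0.0807 in Hoxa-flox, and *Il1b* at 2.12 ± 0.211 against 1.02 ± 0.556 FPKM. Of 9 tested interferon factors 1 fell and 1 rose in Hoxa-flox and 2 fell and 0 rose in Hoxa-del. *Irf7* rose by 2.33 (adjusted p = 0.0118) in Hoxa-flox, from 8.64 ± 0.916 to 57.2 ± 34.6 FPKM, a call lost without Hoxa-flox 1 (adjusted p = 0.0503) or Hoxa-flox 2 (adjusted p = 0.0508). By set, *Irf7* was at 66.7 to 77.8 FPKM in set 1 and 15.9 to 18.9 FPKM in set 2. The interferon receptor chain *Ifngr2* changed by -1.06 and -1.27, and *Ifnar2* by -0.99 in Hoxa-del. Of the 81 tested genes of these 6 lists, 0 passed in Hoxa-del against Hoxa-flox and 0 in WT-Cre against WT-GFP. At an unadjusted p under 0.05 (limma) there were 8 and 4, beside 6.27% and 2.37% of all symbols tested.

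Markers of the cells that make chemokines moved with the genotypes too. The 15 monocyte and macrophage markers summed to 387 to 432 FPKM in the WT libraries, 278 to 286 FPKM in set 1 and 82.2 to 121 FPKM in set 2. The complement genes *C1qa*, *C1qb* and *C1qc* and the scavenger receptor *Msr1* were below 0.5 FPKM in all floxed libraries, whereas *Adgre1* went the other way in set 1, at 95.3 to 99.4 FPKM against 41.1 to 48.2 in WT cells and 29.2 to 42.9 in set 2. *Cd68* was at 121 to 129 FPKM in set 1, 103 to 125 in WT cells and 22.7 to 24.4 in set 2. The 8 neutrophil markers summed to 5595 to 6152 FPKM in WT cells, 1419 to 1706 FPKM in set 1 and 137, 194 and 1613 FPKM in set 2. Of the 8, 5 fell in Hoxa-flox against WT-GFP and 4 in Hoxa-del against WT-Cre, beside 13.5% and 14.2% of all symbols tested. Of the T and NK cell markers, which summed to 41.5 to 115 FPKM in WT cells and 11.3 to 78.5 FPKM in floxed cells, the T cell genes *Cd3e*, *Cd8a* and *Trac* were at or below 0.1 FPKM in all 12 libraries. The NK cell genes *Klrb1c* and *Nkg7* were present in all, at 35.9 to 107 and 5.03 to 8.70 FPKM in WT cells and 7.65 to 75.7 and 1.77 to 7.70 FPKM in floxed cells. Of the other lists, *Hoxa9*, *Elane*, *Prtn3*, *Ctsg* and *Myb*, markers of leukemic progenitors, were present in all. Other markers of that list differed between the genotypes. *Cd34* averaged 2.07 FPKM in WT and 65.0 FPKM in floxed cells, *Kit* 4.65 and 33.2, and *Meis1* 24.0 and 70.2. *Mpo* averaged 240 and 92.8 FPKM, with a wide spread among the floxed libraries. Of the 10 tested, 4 rose and 3 fell in Hoxa-flox against WT-GFP, beside 13.3% and 13.5% of all symbols tested. In Hoxa-del against WT-Cre 3 rose and 3 fell, beside 13% and 14.2%. The part of these cell type differences in the chemokine results was not tested.

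The tested genes whose level followed the 4 most abundant members most closely over the 12 libraries (Pearson r of log2 values, a description of libraries that differ mainly by genotype and set) were as follows. For *Ccl6* they were *Kif13b* and *Fn1* (both r = 0.996) and *F13a1* (r = 0.995). *Ccl9* was followed by *Ifitm10* (r = 0.996), *Smpdl3a* (r = 0.993) and *Krt80* (r = 0.992). For *Ccl2* they were *Abca1*, *Gm8091* and *Msr1* (all r = 0.999), of which the last 2 gave way to *Pak1* and *Sgpl1* with 0.1 FPKM added in place of 1. The 3 nearest to *Ccl3* were *Wwp1* (r = 0.990), *Ogfrl1* and *Dusp6* (both r = 0.987).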

How the data were processed

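RNA of 12 libraries was measured with a stranded, ribosomal RNA-depleted kit, per the labels' protocols. Per the submitters' processing notes, STAR, Cufflinks, Cuffdiff 2.2.2.20150701, GRCm38 and mm10 were used, in roles not given. The authors' deposited values (28042 entries, 0 columns without a sample) were taken as FPKM, the unit of Cufflinks, which the header and labels do not state. For repeated symbols the entry with the highest mean was kept. Symbols averaging 1 FPKM or more were fitted as log2(FPKM + 1) with limma 3.58.1 (limma-trend, R 4.3.3) in 1 fit of 4 groups. The fit was also run on simulated data with 1 spread per gene in all groups and no library sets. The floxed libraries here spread more and fall into sets, so that run does not cover these features. Sequences were read with Python 3.11.15 and Biopython 1.88. The depth of each library relative to WT-GFP 1 was estimated from ratios of low values that lie on steps within 0.02 on the log2 scale. From 45.3% (Hoxa-flox 2) to 53.2% (Hoxa-del 2) of these ratios lay on steps. The absolute scale came from 270 genes through their transcript length. An error in the scale moves all fragment numbers alike, and an error in a relative depth moves those of that library. The origin of the replicates (cultures, animals) is not in the labels, and p-values therefore cover only the spread between libraries, which may be technical. Between genotypes, genes that met this minimum through 1 genotype only are given in the text as levels or with p-values from a fit with no minimum. Comparisons within a genotype kept the fit with the minimum. All members were named, and from each list the 4 genes with the smallest adjusted p past the threshold, or, with none past it, the 2 of highest mean; others are marked as chosen later. Members and lists were chosen with earlier results of these data known. One sequence and one gene are not reported here.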

Additional observations from a re-analysis of the deposited data

How the results depend on the processing

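Alternatives were 0.1 FPKM added in place of 1, testing every symbol, scaling the upper quartiles to be equal, a fit of the compared groups alone, the replicate number as a block and each library left out. After the data were seen, fits with the library set as a term or with 1 set alone, and the second *Ccl3* entry, were added. Of the 8 changes that passed of members at 1 FPKM or more in both genotypes, 7 kept their call under all alternatives run for them, and 103 of 106 values kept the call; the 3 losses were those of *Ccl4* given above. Of 27 such changes of other genes named, 22 kept it throughout and 22 of 351 values lost it.

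With single libraries left out, the number of chemokines called ran from 7 to 8 in Hoxa-flox against WT-GFP, from 6 to 8 in Hoxa-del against WT-Cre, from 0 to 1 in Hoxa-del against Hoxa-flox and the interaction, and stayed 0 in WT-Cre against WT-GFP. The cause was not tested. Signs that changed belonged to differences that had not passed. *Ccl5* in Hoxa-flox against WT-GFP ran from -0.029 (without Hoxa-flox 1) to 0.77 with single libraries left out and was -0.70 with set 2 alone, and in Hoxa-del against WT-Cre it was -0.027 with 0.1 FPKM added, -0.46 with set 2 alone and -0.46 (without Hoxa-del 2) to 0.53 with single libraries left out. *Cxcl2* in Hoxa-del against WT-Cre was -0.19 with set 2 alone and -0.21 (without Hoxa-del 1) to 0.66 with single libraries left out, being -0.19 without Hoxa-del 2. *Ccl9* was 0.30 in Hoxa-del against Hoxa-flox with set 1 alone and 0.069 for the interaction with the set as a term.

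The count of symbols called in Hoxa-flox against WT-GFP went from 3525 to 6791 with set 1 alone and 6004 with set 2 alone, and in Hoxa-del against WT-Cre from 3580 to 6851 and 6391, of 13169 tested, where a set holds 1 or 2 libraries of a floxed group and a lone library is assumed to vary like the other groups. In Hoxa-del against Hoxa-flox it went from 4 to 787 without Hoxa-del 2, 12 without Hoxa-flox 3, 2 without Hoxa-flox 1, 7 without the filter, 1 with the compared groups alone, 32 with set 1 alone and 15 with set 2 alone. In WT-Cre against WT-GFP it went from 2 to 5 without the filter, 5 with the compared groups alone, 3 after rescaling, 0 with the block and 0 to 7 with single libraries left out, and for the interaction from 1 to 4 without the filter and 1 to 5 with single libraries left out. In the replicate block the numbers of chemokines called were 7, 7, 0, 0 and 0, the same as without it. Same-numbered libraries did not deviate together in every pair (correlations from -0.30 to 0.72), so they share only a number.

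Depth limits *Ccl2*, *Ccl7* and *Cxcl16* in floxed cells and *Ccl5* throughout, at under 20 fragments a library. Single libraries of other members were as low: *Cxcl10* at about 19 fragments in WT-GFP 1 and 8 in WT-Cre 2, and *Ccl4* at about 15 in Hoxa-del 1.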
